A study of Mus musculus with 2 samples.

Results

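The genes described here are 9 small leucine-rich proteoglycans (SLRPs): decorin (Dcn), lumican (Lum), biglycan (Bgn), fibromodulin (Fmod), osteoglycin (Ogn), osteomodulin (Omd), asporin (Aspn), PRELP (Prelp) and podocan (Podn). They were chosen by gene symbol, as members of one family, from the 32285 genes of the count tables. All 9 had UMIs in both libraries. The question was which cells of the inflamed temporomandibular joint (TMJ) carried their transcripts, and how those levels compared between WT and Prox1 mutant joints. The data were 2 droplet scRNA-seq libraries, 1 from WT mice and 1 from Prox1+/- mice, which carry 1 intact copy of the lymphatic transcription factor Prox1. Both groups were C57BL/6 mice of 8 to 10 weeks by the labels, female by the study's methods, and both received complete Freund's adjuvant (CFA), an inflammatory emulsion, by injection into the joint. No joint without CFA is analysed here, and the sources used here do not give the number of mice behind a library. With 1 library per genotype there is no replicate error, so no test between genotypes was made, and every interval covers counting error only.

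SLRPs are secreted proteins of the extracellular matrix, built from a short core of leucine-rich repeats that most members carry together with chondroitin, dermatan or keratan sulphate chains. They bind collagen fibrils and set how fibrils form, thicken and pack in tendon, ligament, cartilage, bone, skin and cornea. Several also bind growth factors of the TGF-β family or receptors of innate immunity, and fragments of them are released when joint matrix is degraded.

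After filtering for at least 500 genes and under 10% mitochondrial UMIs, 4352 WT cells (48366846 UMIs, median 6997 per cell) and 5757 mutant cells (54330221 UMIs, median 4848) remained, and 4 kept barcodes occurred in both libraries. Prox1 itself, counted over all kept cells, stood at 11.6 counts per 1000000 UMIs (CPM) in WT and 5.80 in the mutant. In endothelial cells, among which no cluster was named lymphatic, it was 43.5 and 25.9 CPM, whereas in muscle cells it was 312 and 487 CPM. Endothelial cells were 21.5% of WT and 8.56% of mutant cells, and this share also moves the Prox1 value over all kept cells. Cells were clustered without the 9 SLRPs, and clusters were named from marker genes that also excluded them, so the names are calls of the kind mesenchymal-like or Schwann-like, written here without the suffix. Mesenchymal cells (544 WT and 359 mutant) came from 2 clusters: one led by Clec3b, Prg4, Has1, Col14a1 and Pi16, in which all 9 mesenchymal markers were raised, and one led by Tnn, Pdzrn4, Ecrg4, Postn and Adamts18, in which 5 of 9 were raised. They are called the Clec3b-led and the Tnn-led cluster. Of 43 clusters, 13 stayed unnamed, with 821 WT and 2121 mutant cells.

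The SLRP genes lie in groups along the mouse genome, and the group on chromosome 13 returns below. In GRCm38, Aspn (13:49544443-49567565), Omd (13:49582462-49592822) and Ogn (13:49608046-49624501) follow each other on the plus strand, with gaps of 14896 and 15223 bases, after another family gene, Ecm2. All 4 lie within Cenpp (13:49464023-49652785), a centromere protein gene on the minus strand. On chromosome 10, Dcn (10:97479609-97518143) is followed by Lum (10:97565128-97572703) 46984 bases on, and then by the family gene Kera. On chromosome 1, Prelp (1:133910304-133921414, minus strand) lies 115839 bases before Fmod (1:134037254-134048277, plus strand). Bgn (X:73483602-73495933, plus strand) and Podn (4:108014791-108096445, minus strand) stand apart from these groups.

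RefSeq promoters (GRCm38.p6, 250 bases before to 50 after the start) were matched for 7 of the 9 genes, with 8 promoters, and none was matched for Dcn and Lum. The 3 neighbours of chromosome 13 are shown because their transcripts were found in different cells, as described below. Capitals mark matches, on either strand, to TATAAA or to the RUNX core TGTGGT.
Aspn promoter, chr13:49544193-49544492, plus strand: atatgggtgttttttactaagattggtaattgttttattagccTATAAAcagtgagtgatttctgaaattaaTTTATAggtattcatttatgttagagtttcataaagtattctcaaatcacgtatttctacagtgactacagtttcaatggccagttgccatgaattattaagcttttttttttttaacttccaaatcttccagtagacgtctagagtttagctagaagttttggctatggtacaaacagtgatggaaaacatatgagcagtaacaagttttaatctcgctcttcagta
Omd promoter, chr13:49582212-49582511, plus strand: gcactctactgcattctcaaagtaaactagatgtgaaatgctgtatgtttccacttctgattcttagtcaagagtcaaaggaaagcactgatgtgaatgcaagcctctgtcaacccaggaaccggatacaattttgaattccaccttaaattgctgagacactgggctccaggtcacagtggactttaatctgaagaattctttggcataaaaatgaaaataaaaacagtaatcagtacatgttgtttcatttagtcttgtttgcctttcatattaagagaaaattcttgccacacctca
Ogn promoter, chr13:49607765-49608064, plus strand: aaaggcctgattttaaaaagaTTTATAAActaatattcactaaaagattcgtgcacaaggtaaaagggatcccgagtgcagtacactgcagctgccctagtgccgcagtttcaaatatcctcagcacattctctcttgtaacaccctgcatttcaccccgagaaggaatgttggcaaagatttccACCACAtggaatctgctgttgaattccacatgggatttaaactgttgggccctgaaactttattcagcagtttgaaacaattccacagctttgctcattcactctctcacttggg
TATAAA or its reverse complement occurred at -207 and -178 in the Aspn promoter and, overlapping each other, at -229 and -227 in the Ogn promoter, relative to the start. The RUNX core occurred once, at -65 in the Ogn promoter, as the reverse complement ACCACA. No match to these motifs, to the AP-1 motif TGANTCA or to the SOX core ACAAAG fell in the Omd window. Of 32851 promoters of this length, 13.6% held TATAAA, 16.8% the RUNX core, 7.81% the AP-1 motif and 18.7% the SOX core on either strand. The G and C content of these windows was 31.0% for Aspn, 37.7% for Omd and 42.3% for Ogn, against a median of 52.7% over all promoters. A match is a string of letters in the window and not evidence of binding.

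SLRP transcripts were concentrated in the stromal and skeletal cells of the joint. In WT, 8 of the 9 genes had their highest level among 15 cell types in mesenchymal cells, chondrocytes or osteoblasts and osteocytes, and in the mutant 8 of 9 did so among 17 types. Of all genes, 13% in WT and 10.8% in the mutant had their highest level in these types. Ogn was the exception in both libraries, with its highest level among these types in Schwann cells. Within the mesenchymal cells, the finer group with most Ogn, described below, stood above the Schwann cells in each library. It had 822 CPM in WT and 911 in the mutant.

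Decorin, which coats collagen fibrils and limits their lateral growth, showed the steepest order of types. Its level in mesenchymal cells was 7809.8 (95% interval 7749 to 7871) in WT and 5317 (95% interval 5259 to 5375) in the mutant, in CPM. The next types were osteoblasts and osteocytes at 2683 in WT and 963 in the mutant, and chondrocytes at 1074 and 1245. Muscle cells followed at 857 and 515 CPM. In WT these 4 levels were separated by more than their counting intervals, and in the mutant chondrocytes stood above osteoblasts and osteocytes.

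Lumican, a keratan sulphate proteoglycan known for its part in corneal transparency, was at 1254 in WT and 741 in the mutant CPM in osteoblasts and osteocytes and at 902 in WT and 818 in the mutant in mesenchymal cells. The intervals of these types overlapped in the mutant and not in WT. Biglycan, the closest relative of decorin, was highest in WT chondrocytes at 2675 CPM and in mutant mesenchymal cells at 1893. WT mesenchymal cells had 1869.7 CPM of Bgn and mutant chondrocytes 1322. It was also past 100 CPM in osteoblasts and osteocytes, pericytes and smooth muscle in both libraries.

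Fibromodulin, which binds collagen type I and is abundant in tendon and cartilage, was shared by mesenchymal cells and chondrocytes, at 842 in WT and 713 in the mutant CPM in the first and 900.2 in WT and 651 in the mutant in the second, with overlapping intervals in each library. Osteomodulin, a keratan sulphate proteoglycan of bone, was highest in chondrocytes and in osteoblasts and osteocytes. Its level was 214 in WT and 80.4 in the mutant in chondrocytes, 204 in WT and 83.5 in the mutant in osteoblasts and osteocytes, and 98.4 in WT and 31.7 in the mutant in mesenchymal cells. Asporin, whose core protein carries a run of aspartic acid residues, was highest in mesenchymal cells at 1251 in WT and 1185 in the mutant CPM. PRELP, which links collagen to basement membrane heparan sulphate, reached 285 in WT and 371 in the mutant in mesenchymal cells, and podocan reached 66.2 in WT and 52.9 in the mutant. These orders depend on the naming of the Tnn-led cells: in the 7 of 8 other clusterings that named them chondrocyte or osteoblast, Aspn in both libraries and Lum, Bgn, Fmod and Prelp in the mutant were highest in chondrocytes or in osteoblasts and osteocytes.

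**Figure D1:**
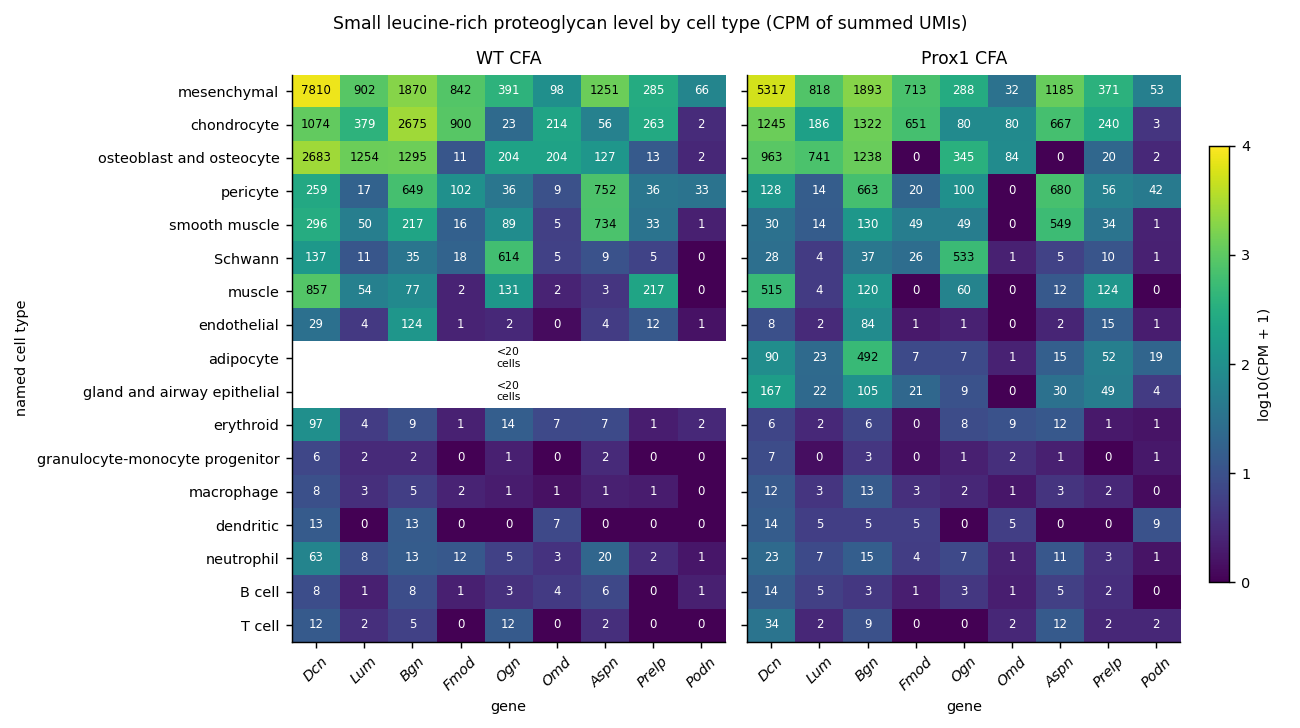
Level of each SLRP in each named cell type with at least 20 cells, in the WT and the mutant library, as CPM printed in the tile and log10(CPM + 1) as its shade, with types of fewer than 20 cells left blank. Lighter tiles are higher levels. Mesenchymal cells, chondrocytes and osteoblasts and osteocytes hold the lightest tiles, and the Schwann cell tiles of Ogn (614 and 533 CPM) are the lightest of that gene.

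Cells that should lack these genes served as a reference for free RNA. Neutrophils, B cells and T cells together (555 WT and 769 mutant cells, median 4786 and 5291 UMIs) held 50.5 in WT and 22.8 in the mutant CPM of Dcn, 16.6 in WT and 10.5 in the mutant of Aspn and 11.8 in WT and 12.8 in the mutant of Bgn. The other 6 genes were under 10 CPM there. In WT a few cells carried much of this: 1 neutrophil held 45.3% of the Dcn UMIs of the WT neutrophils (63.0 CPM, and 34.5 without it) and 1 held 38.5% of those of Aspn (12.4 CPM without it). A Dcn UMI was seen in 9.19% and 13.5% of these cells, and after thinning each cell to 2000 UMIs in 3.43% and 6.92%. Mesenchymal cells, with a median of 12284 and 14731 UMIs, had a Dcn UMI in 97.1% and 90.8% of cells, or 94.9% and 88.0% after thinning. Levels near those of the free RNA cells are read as background.

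Single mesenchymal cells carried several SLRPs at once. At 2000 UMIs per cell, the median mesenchymal cell held UMIs of 4 of the 9 genes in both libraries, and 86.3% of WT and 84.0% of mutant cells held at least 3. None of the 9 was seen in 2.81% and 5.72% of them. Among macrophages that share was 98.1% and 90.8%.

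Outside the skeletal stroma, single members stood out in single cell types. Schwann cells, the glia of peripheral nerve, carried Ogn at 614 (95% interval 578 to 650.5) in WT and 533 (95% interval 483 to 587) in the mutant, in CPM, while the other 8 genes reached at most 137 (Dcn in WT) and 37.5 (Bgn in the mutant). An Ogn UMI was found in 67.6% of WT and 58.4% of mutant Schwann cells, or in 55.7% and 47.3% after thinning, against 0.857% and 2.71% of the free RNA cells.

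The mural cells of vessels carried asporin and biglycan. Pericytes had Aspn at 752 in WT and 680.1 in the mutant CPM and Bgn at 649 in WT and 663 in the mutant, and smooth muscle cells had Aspn at 734 in WT and 549 in the mutant and Bgn at 217 in WT and 129.9 in the mutant. Podn, low elsewhere, was at 33.0 in WT and 41.8 in the mutant in pericytes, next to mesenchymal cells in both libraries. The pericyte values also leaned on few cells. A single pericyte held 19.0% of the WT and 16.0% of the mutant Bgn UMIs, and 16.4% and 22.5% of those of Aspn. Pericyte Podn came from only 19 WT UMIs and 15 mutant UMIs, of which 1 cell held 10.5% and 26.7%. For smooth muscle the highest cell held 2.55% and 3.38% of the Aspn UMIs and 10.6% and 11.5% of those of Bgn. Further SLRP values in mural cells rested more on single cells: all 59 Fmod UMIs of WT pericytes came from 1 cell, and 91.3% of the Dcn UMIs of mutant pericytes came from 1 cell. In WT smooth muscle, Dcn was 296 CPM, and 164 without the highest cell.

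Endothelial cells carried mainly Bgn, at 124 in WT and 84.1 in the mutant CPM, and most in the cluster led by Ubd, Selp and Plvap, where it was 272 in WT and 165 in the mutant. Muscle cells (89 WT and 35 mutant) carried Prelp at 217 in WT and 124 in the mutant CPM and Ogn at 131 in WT and 59.9 in the mutant, beside the Dcn level given above. Adipocytes, of which only the mutant library held enough cells (117), had Bgn at 492 CPM, of which 37.0% came from 1 cell.

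The cartilage and bone cells were few and differed in depth between the libraries, so their values are given side by side. The chondrocyte cluster held 36 WT cells of 29687 UMIs at the median and 135 mutant cells of 2857. In this cluster 8 of 9 chondrocyte markers were raised, and in that of osteoblasts and osteocytes 7 of 7. Col2a1, the defining collagen of cartilage, had a UMI in 77.8% of the WT and 9.63% of the mutant chondrocytes, and Acan in 80.6% and 60.7%. Col9a1 had one in 77.8% and 5.93%, and Sox9 in 77.8% and 29.6%. The name chondrocyte is therefore less certain for the mutant cells. The summed chondrocyte markers (Col2a1, Acan, Col9a1 and 6 others) stood at 44770.1 CPM in WT and 4998 in the mutant, while the summed erythroid markers, mostly haemoglobins, stood at 118 and 98791 CPM. Against this, Aspn was 56.1 in WT and 667 in the mutant CPM and Omd 214 in WT and 80.4 in the mutant. Of the Aspn UMIs, 1 cell held 47.2% in WT and 31.2% in the mutant (30.4 and 478 CPM without it). Of the Omd UMIs, 1 cell held 27.2% and 19.6% (160 and 66.6 CPM without it). The part of the chondrocyte and erythroid markers in these values was not tested. Among osteoblasts and osteocytes (28 and 21 cells), Dcn was 2683 in WT and 963 in the mutant CPM, with 38.2% of the mutant UMIs in 1 cell, Bgn 1295 in WT and 1238 in the mutant and Ogn 204 in WT and 345 in the mutant. The markers of these cells also differed between the libraries: the osteocalcin gene Bglap was 26591 CPM in WT and 7314 in the mutant, the osteocyte gene Dmp1 91.1 and 702, and Runx2 2908 and 3897, and their part in the SLRP values was not tested. Aspn in those cells was 127 CPM in WT, of which 43.7% came from 1 cell, and had 0 UMIs in the mutant, which allows up to 5.57 CPM.

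Within the mesenchymal cells the family divided between the 2 clusters. The Clec3b-led cluster (371 WT and 253 mutant cells), whose leading genes include the synovial lining genes Prg4 and Has1, was high in Dcn, at 9088 in WT and 5985 in the mutant CPM against 4724 in WT and 3317 in the mutant in the Tnn-led cluster (173 and 106 cells). Podn went the same way, at 90.0 in WT and 65.3 in the mutant CPM against 8.77 in WT and 15.9 in the mutant. Fmod went the other way, at 216 in WT and 149 in the mutant in the Clec3b-led cluster and 2354 in WT and 2400.3 in the mutant in the Tnn-led cluster. Omd was 11.1 in WT and 9.51 in the mutant and 309 in WT and 98.0 in the mutant, and Aspn was 817 in WT and 698 in the mutant and 2298 in WT and 2641 in the mutant, in the same order. Lum, Bgn and Prelp were also higher in the Tnn-led cluster in both libraries. Ogn was 395 in WT and 260.2 in the mutant in the Clec3b-led cluster and 379.7 in WT and 372 in the mutant in the Tnn-led cluster. Its levels in the 2 clusters were thus close in WT, and in the mutant the Tnn-led cluster was higher.

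The split was visible cell by cell. An Fmod UMI was found in 12.4% of WT and 9.49% of mutant cells of the Clec3b-led cluster and in 91.3% and 88.7% of those of the Tnn-led cluster, or in 7.22%, 7.52%, 80.9% and 81.1% after thinning. For Omd the thinned shares were 1.11% and 2.65% in the Clec3b-led cluster and 30.1% and 11.3% in the Tnn-led cluster. Thinning is a random draw, and another draw gave Omd shares of 2.22%, 2.21%, 32.4% and 11.3% in the same order. In that draw the Fmod shares of the Tnn-led cluster were 82.7% and 75.5%. Under the 8 other clusterings the cells of the Tnn-led cluster took the name chondrocyte in 6, osteoblast in 1 and mesenchymal in 1, so the values of each cluster are given separately throughout.

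Dividing the mesenchymal cells further gave 7 groups, each named here by 2 of its leading genes. Dcn was highest in the Egfl6/Comp group, at 13819 in WT and 9791 in the mutant CPM, and lowest in the Adamts18/Kcnq5 group, at 2937 in WT and 2235 in the mutant. The Adamts18/Kcnq5 group, which also led with the cartilage genes Acan and Hapln1, had the highest levels of Bgn, at 3286 in WT and 3494 in the mutant, and of Fmod, at 3084 in WT and 3136 in the mutant. In the Tek/Dpp4 group a single Fmod UMI was found, in WT. In the Inmt/Fmo2 group Fmod was 14.5 CPM in WT, and none was found among the 17 mutant cells.

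The Bglap2/Fat3 group, which also led with the bone genes Alpl and Ostn, was the highest for Lum, at 2207 in WT and 2119.6 in the mutant CPM, and for Omd, at 416 in WT and 145 in the mutant. Ogn was highest in the Inmt/Fmo2 group of the WT library, at 822 CPM, and in the Bglap2/Fat3 group of the mutant library, at 911. Podn was highest in the Inmt/Fmo2 group, at 218 in WT and 112 in the mutant, and lowest in the Adamts18/Kcnq5 group, at 3.66 in WT and 4.54 in the mutant. Aspn was highest in the Adamts18/Kcnq5 group in WT, at 2498, and in the Bglap2/Fat3 group in the mutant, at 2661. Prelp was highest in the Egfl6/Comp group in WT, at 626, and in the Adamts18/Kcnq5 group in the mutant, at 731. The Alcam/Bpifb1 group (79 WT and 90 mutant cells), the shallowest at 4770 and 4577 UMIs per cell, was the lowest for Lum, Bgn and Prelp in both libraries. Its summed mesenchymal markers, at 5980 CPM in WT and 7131 in the mutant, were also the lowest of the groups. The name mesenchymal is therefore less certain for these cells.

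**Figure D2:**
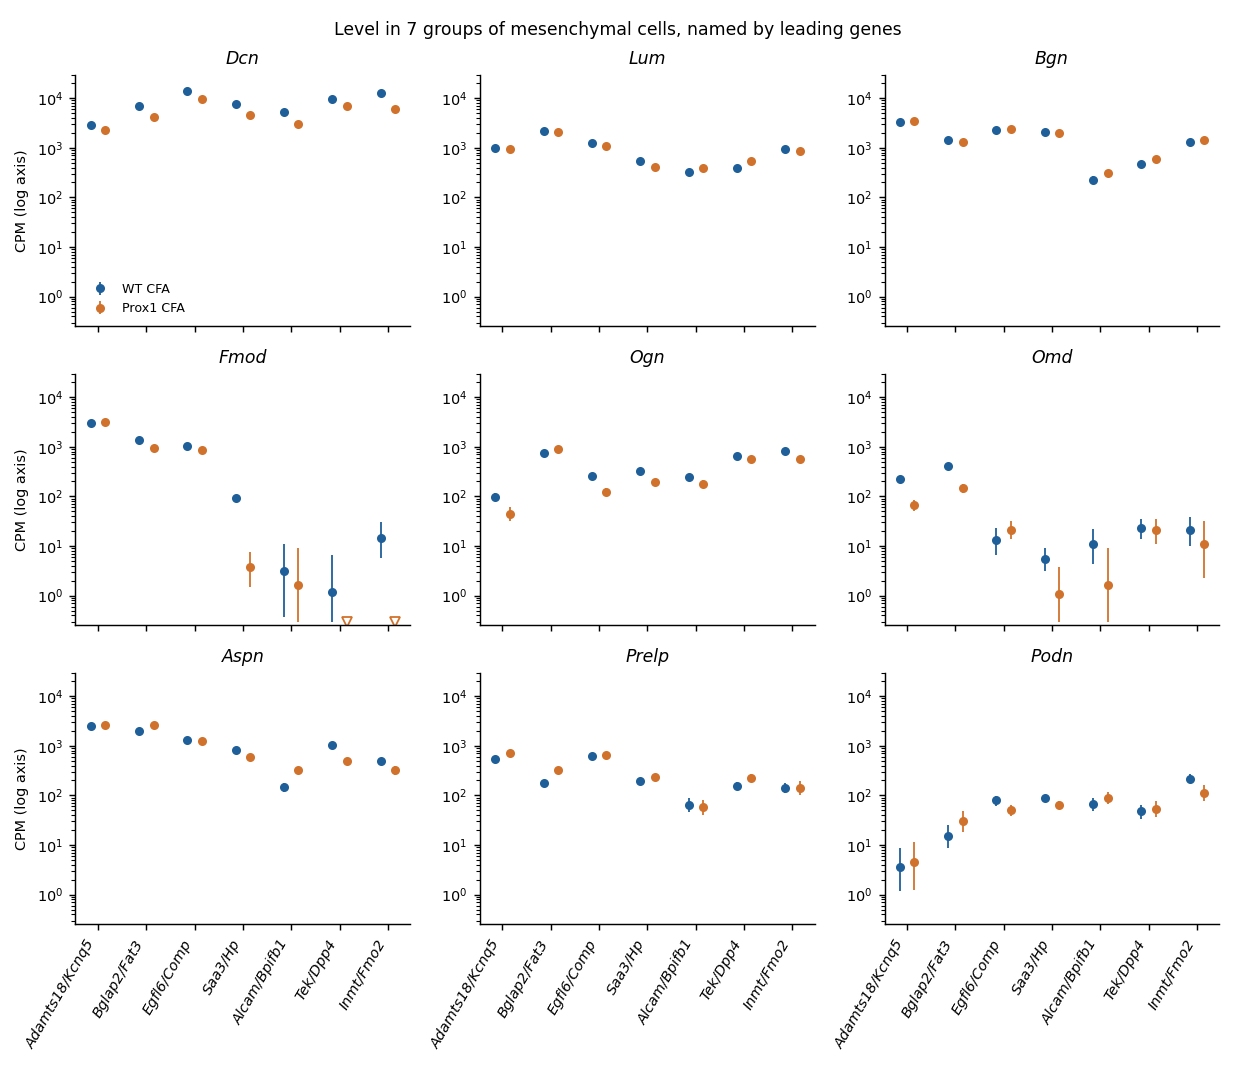
Level of each SLRP in CPM on a log axis in the 7 groups of mesenchymal cells, for the WT and the mutant library, with exact Poisson 95% bars and open triangles where no UMI was found. Fmod runs from 3136 CPM in the mutant Adamts18/Kcnq5 group to 0 UMIs in 2 mutant groups, whereas Dcn stays between 2235 and 13819 CPM in all of them.

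The same division showed in how members paired within cells. Over the mesenchymal cells thinned to 2000 UMIs (533 WT and 332 mutant cells, all cells of a library sharing its preparation), Spearman's rho between Bgn and Fmod was 0.43 in WT and 0.37 in the mutant. It was 0.39 and 0.42 between Fmod and Aspn, and 0.28 and 0.44 between Fmod and Prelp. Between Dcn and Fmod it was -0.25 and -0.09. These coefficients are weak to moderate and are given as descriptions of sparse counts.

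Counted by transcripts rather than by level, mesenchymal cells held most of the family. They were 12.5% of WT and 6.24% of mutant cells and held 84.7% and 80.6% of all UMIs of the 9 genes. For Dcn the share was 92.1% and 87.6%. It was lowest for Omd, at 62.3% and 39.8%. Schwann cells held 22.6% and 14.1% of the Ogn UMIs, smooth muscle 9.93% and 8.32% of those of Aspn, and chondrocytes 12.1% and 5.36% of those of Bgn. Over all kept cells the family summed to 2695 in WT and 1469.7 in the mutant CPM, which moves with the share of mesenchymal cells as well as with the level in each cell. Where other clusterings gave the Tnn-led cells another name, the mesenchymal share of the family's UMIs fell to between 49.1% and 60.1% in WT. An unnamed cluster of 242 mutant cells and 0 WT cells, with 6 of 9 mesenchymal markers raised, is not counted as mesenchymal here. The mesenchymal share of mutant cells therefore also depends on that naming.

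**Figure D3:**
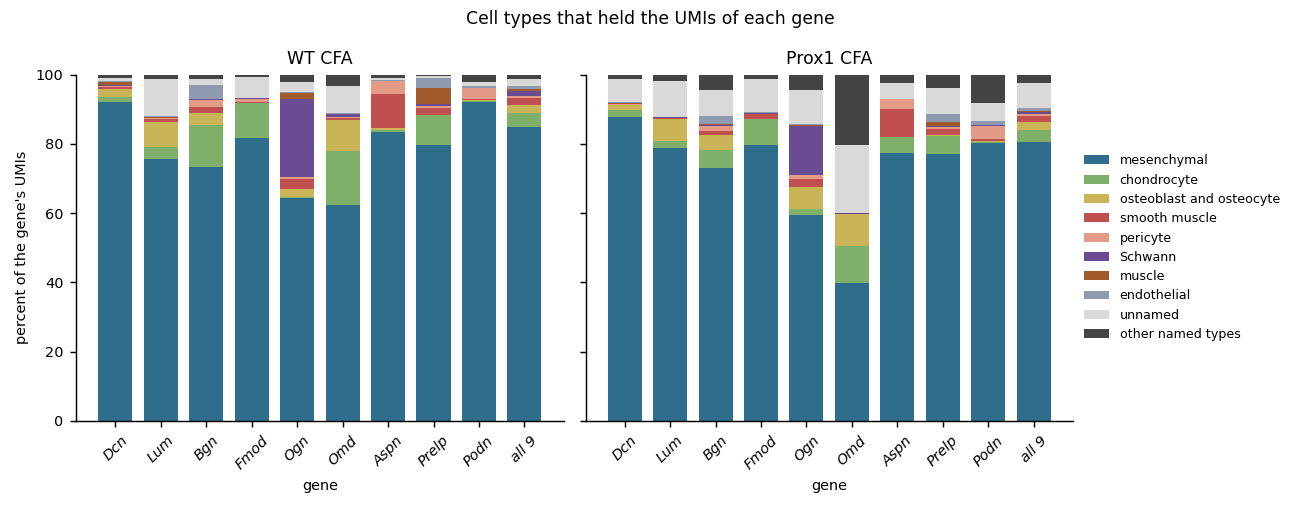
Percent of each gene's UMIs held by each cell type, as stacked bars for the 9 SLRPs in the WT and the mutant library. Mesenchymal cells hold between 62.3% (Omd) and 92.1% (Dcn) in WT, and the Schwann cell segment of Ogn (22.6% and 14.1%) stands out from the other genes.

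Between genotypes, decorin and osteomodulin transcripts were lower in mutant mesenchymal cells. The other members lay between -0.44 (Ogn) and 0.38 (Prelp) on the log2 scale. Dcn was 7809.8 in WT and 5317 in the mutant CPM, giving -0.55 (-0.57 to -0.54) as the log2 of mutant over WT with its 95% counting interval. Omd was 98.4 in WT and 31.7 in the mutant, or -1.63 (-1.87 to -1.41) as log2. Prelp was 285 in WT and 371 in the mutant, or 0.38 (0.30 to 0.46). Among the 8224 genes with at least 200 UMIs in these cells the median log2 ratio was 0.04, with 5th and 95th percentiles of -0.53 and 0.54, which gives the size that ratios of other genes reach between these libraries. Omd lay at percentile 0.633 and Dcn at percentile 4.51 of that spread. Ogn lay at percentile 7.18 and Prelp at percentile 89.1, both between the 5th and 95th percentiles.

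Of the 9 genes, none was at least 1.5 times higher in the mutant and 1, Omd, was at least 1.5 times lower. Of all 8224 genes, 4.13% were that much higher and 4.05% that much lower, so the count of members past this size was near the background. The median of the 9 log2 ratios was -0.24, and 7 of 9 lay below 0. Of all genes tested, at most 46.4% lay below 0, as Bgn with its ratio of 0.02 stood at that percentile. Lum was at -0.14, Bgn at 0.02, Aspn at -0.08, Fmod at -0.24, Podn at -0.32 and Ogn at -0.44. The sum of the 9 was 13514 CPM in WT and 10669 in the mutant, or -0.34 (-0.36 to -0.33) as log2, and Dcn made up most of that difference.

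Dcn was lower in the mutant in every mesenchymal group. In the Clec3b-led cluster it was 9088 in WT and 5985 in the mutant CPM (log2 ratio -0.60), and in the Tnn-led cluster 4724 in WT and 3317 in the mutant (-0.51). Over the 7 finer groups the log2 ratio ran from -1.11 in the Inmt/Fmo2 group to -0.39 in the Adamts18/Kcnq5 group, each interval lying below 0. At 2000 UMIs per cell, the median Clec3b-led cell held 18 Dcn UMIs in WT and 9.5 in the mutant, and the median Tnn-led cell 8 and 4.5. In 8 other clusterings the log2 ratio of the matched clusters was -0.70 to -0.56 for the Clec3b-led and -0.61 to -0.24 for the Tnn-led cells.

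Omd was lower in the mutant in the mesenchymal groups where it was most abundant. In the Tnn-led cluster it was 309 in WT and 98.0 in the mutant CPM (log2 ratio -1.66 (-1.92 to -1.40)), with -1.83 to -1.50 in the matched clusters of 8 other clusterings. In the Bglap2/Fat3 group it was 416 in WT and 145 in the mutant and in the Adamts18/Kcnq5 group 226 in WT and 65.9 in the mutant. In the Clec3b-led cluster it was low, at 11.1 in WT and 9.51 in the mutant, with an interval from -0.81 to 0.36 around its log2 ratio. Over all mesenchymal cells the ratio changed sign in 2 of the clusterings that gave the Tnn-led cells another name, to 0.45 with the libraries merged and 0.40 with log-normalization. The summed tenocyte markers (Tnmd, Scx, Mkx and Thbs4) moved with Omd in the Bglap2/Fat3 group, from 3772 to 1419 CPM, and in the Adamts18/Kcnq5 group they stood at 152 and 172. Their part in the Omd difference was not tested.

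The remaining members did not move in a common direction, though some kept their own. Over the 7 finer groups, Ogn was lower in the mutant in 6, with 6 intervals below 0 and 1 above. Prelp was higher in 6 of 7, with 4 intervals above 0 and 0 below. Fmod was lower in 4 and higher in 1, with 3 intervals below 0, and 2 groups gave no ratio. Lum was lower in 5, Aspn in 4, Podn in 3 and Bgn in 2 of the 7. Ogn was 395 in WT and 260.2 in the mutant CPM in the Clec3b-led cluster (log2 ratio -0.60, -0.74 to -0.46 in other clusterings) and 379.7 in WT and 372 in the mutant in the Tnn-led cluster (-0.03, -0.08 to 0.40). Prelp was higher in the mutant in both, at 242 in WT and 295 in the mutant in the Clec3b-led (0.29) and 391 in WT and 599 in the mutant in the Tnn-led cluster (0.62), and the matched clusters of all 8 other clusterings lay above 0. Fmod was 216 in WT and 149 in the mutant in the Clec3b-led cluster (-0.54) and 2354 in WT and 2400.3 in the mutant in the Tnn-led cluster (0.03). Aspn had log2 ratios of -0.23 and 0.20, and Podn of -0.46 and 0.86, the last with an interval from -0.05 to 1.78. Bgn and Lum stayed between -0.10 and 0.06 in both clusters.

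RNA of other cell types differed between the libraries within these clusters. The summed erythroid markers stood at 3019.7 CPM in WT and 4109.8 in the mutant in the Clec3b-led cluster, and at 297 and 3830.3 in the Tnn-led cluster. The neutrophil markers were 116 and 765 in the Clec3b-led cluster, and the synovial lining markers 2636 and 4379.7. The mesenchymal markers were 26639 and 22790.3 there, and 35748 and 26425 in the Tnn-led cluster. With mitochondrial and haemoglobin UMIs left out of the total, the log2 ratio of the summed SLRPs was -0.34, and that of Dcn -0.55. The part of cell composition within a cluster was not tested.

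**Figure D4:**
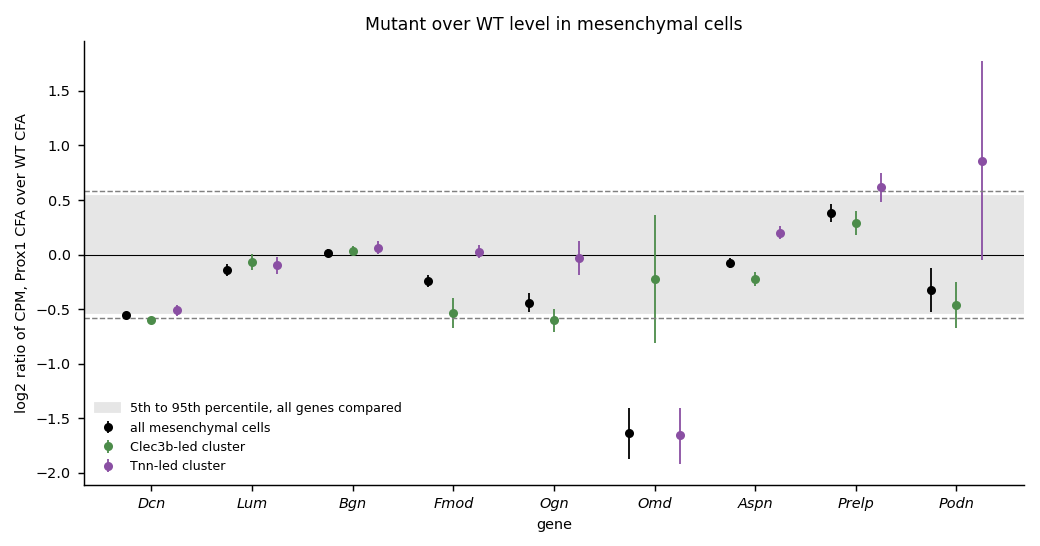
Log2 ratio of mutant over WT for each SLRP in all mesenchymal cells, in the Clec3b-led and in the Tnn-led cluster, with 95% counting intervals, a grey band from the 5th to the 95th percentile of 8224 genes and dashed lines at 1.5-fold. Omd in all mesenchymal cells (-1.63) and in the Tnn-led cluster (-1.66) lies far below the band, and Dcn lies at its lower edge in all of them.

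Over all 15 types with at least 20 cells in each library, mesenchymal cells included, Dcn was lower in the mutant in 9, with the interval below 0 in those 9 and above 0 in 1, the chondrocytes. Many of these levels lie near the free RNA level or rest on 1 cell. The log2 ratio of Ogn in Schwann cells was -0.20 (-0.37 to -0.04). Bgn and Aspn of pericytes had log2 ratios of 0.03 (-0.21 to 0.27) and -0.14 (-0.38 to 0.09), with intervals that include 0.

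The other genes of the family and of its pathway were taken from fixed lists and read in mesenchymal cells. Of 8 further SLRP family genes, 4 passed the minimum of 200 UMIs, with a median log2 ratio of 0.23. Keratocan (Kera), the neighbour of Lum, was 42.2 CPM in WT and 13.3 in the mutant (-1.67), and epiphycan (Epyc), a cartilage SLRP, was 11.7 and 20.7 (0.82). The Epyc value rested on few cells: 76 of its mutant UMIs came from the 52 cells of the Egfl6/Comp group, of which 3.85% held any, and in the Clec3b-led cluster an Epyc UMI was found in 5.93% of WT and 3.56% of mutant cells. Kera also rested on few cells. In the Bglap2/Fat3 group, 329 WT UMIs came from 19.5% of 82 cells and 55 mutant UMIs from 17.4% of 46 cells. The share of Tnn-led cells with a Kera UMI was 9.25% in WT and 8.49% in the mutant. Ecm2, the neighbour of Aspn, was 157 and 151, and chondroadherin (Chad), which binds cells to cartilage collagen, was 34.6 and 49.6. Of the mutant Chad UMIs, 109 came from 5.77% of the 52 cells of the Egfl6/Comp group. Chad was far higher in chondrocytes, at 1778 and 678 CPM.

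Of 15 collagens and fibril partners, 0 were at least 1.5 times higher and 2 were lower: elastin (Eln), at 279.8 CPM in WT and 108 in the mutant, and the crosslinking enzyme Lox, at 206 and 129.7. The median log2 ratio of the list was 0.05. Col1a1, the main collagen of bone and fibrous tissue, was 7979.7 and 5596 (-0.51), close to the ratio of Dcn, and Col3a1 was at -0.05. The enzymes that build the sugar chains of SLRPs did not pass this size in either direction, 16 of 23 having enough UMIs, with a median of 0.05.

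Of 13 proteases that can cut SLRPs, 10 were read, 0 were higher and 3 were lower. Mmp13, the interstitial collagenase of cartilage and bone, was 387 CPM in WT and 143 in the mutant (-1.44). The aggrecanase gene Adamts4 was 34.6 and 17.6, and Adamts9 was 50 and 31.2. Mmp2 and Mmp14, which are more widely expressed, were at -0.22 and -0.18, and the median of the list was -0.20. Of 18 receptors and growth factors that SLRPs bind, 14 were read, and 1, the lipopolysaccharide co-receptor Cd14, passed 1.5-fold, at 26.2 and 13.8, with a list median of -0.05. The receptor genes Tlr2 and Tlr4 were at 0.40 and -0.14.

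Matrix genes of other kinds gave a reference outside the family. Of 10, 2 were at least 1.5 times higher in the mutant and 1 was lower. Lubricin (Prg4), the boundary lubricant of the synovial lining, was 1512 CPM in WT and 2751 in the mutant (0.86), and Cspg4 was 65.9 and 112. The microfibril gene Mfap5 was 790.3 and 493. The median of this list was 0.05, against -0.24 for the 9 SLRPs and 0.04 for all genes tested.

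The genes whose levels followed each SLRP most closely over cell types were found by Pearson's r of log2(CPM + 5) over 30 points (15 types in each of 2 libraries, types of a library sharing its free RNA and depth) among 13687 genes. They are descriptive and carry no test. For Dcn they were Mmp2 (r = 0.95), Islr and Robo1, and for Lum Serpinf1 (r = 0.94), Mmp2 and Ptgis. Bgn was followed by Gli3 (r = 0.98) and by the collagen-processing genes Pcolce and Serpinh1. Fmod was followed by Tnn (r = 0.95), Anxa8 and the cartilage proteoglycan gene Acan, and Omd by the cartilage collagen gene Col11a1 (r = 0.94), Clec11a and Cgref1. Aspn was followed by Twist2 (r = 0.94), Barx1 and Ndufa4l2, Prelp by P4ha2 (r = 0.93), Lrrc17 and Ackr3, and Podn by Il33 (r = 0.93), Nox4 and Osr1. Ogn, whose highest level among cell types was in Schwann cells, was followed by Rab40b (r = 0.91), Zfp651 and Pygo1. Among the members themselves, r was 0.91 between Dcn and Lum and 0.87 between Dcn and Bgn.

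Asporin, osteomodulin and osteoglycin, with their neighbour Ecm2, were also counted in nucleated erythroid cells, where the overlapping gene Cenpp was high. In the erythroid cluster led by Hemgn (136 WT and 285 mutant cells), which also expressed the proliferation gene Mki67, Cenpp was 521 CPM in WT and 616 in the mutant. Aspn was 10.1 and 14.3 there, Omd 10.1 and 13.5, Ogn 17.2 and 11, and Ecm2 16.3 and 22.8. The Aspn level was near that of the free RNA cells given above, so by CPM it cannot be told from background. The B cells among those free RNA cells had Cenpp at 207 CPM in WT and 110 in the mutant, and its part in their values was not tested. Of the members on other chromosomes, Fmod was 0.881 and 0.579 CPM, Lum 5.73 and 0.964, Bgn 12.8 and 4.05 and Dcn 149.8 and 4.24. The WT values of Dcn and Bgn rested on few cells. Over all WT erythroid cells, 1 cell held 93.8% of the Dcn UMIs and 1 held 48.5% of those of Bgn. Without the highest cell of each gene, Dcn stood at 6.04 and Bgn at 4.66 CPM over all WT erythroid cells. With every cell kept, Aspn stood at 6.80 and Omd at 6.53 CPM over the same cells. By cells, an Aspn UMI was found in 14.7% of WT and 20% of mutant cells of this cluster and an Omd UMI in 14.7% and 21.4%, against 5.15% and 7.37% for Dcn and 2.94% and 4.56% for Bgn. In the erythroid cluster led by Tmcc2 (154 and 218 cells), Cenpp was 3.16 and 4.73 CPM and a single Omd UMI was found, in WT. The other genes inside Cenpp were still counted there, Ogn at 10.3 and 2.10 CPM, Aspn at 1.58 and 8.40 and Ecm2 at 5.53 and 3.68. In the cluster led by Slc6a20a (9 WT and 50 mutant cells), the mutant cells had Cenpp at 1194 CPM and Omd at 23.7, from 5 UMIs.

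Erythroid cells were 11.9% of mutant and 7.31% of WT cells. They held 15.6% of the Omd UMIs of the mutant library and 1.86% of those of WT. In the mutant this was close to their share of all UMIs, and in WT it was below that share. The SLRP genes lie on the plus strand and Cenpp on the minus strand, and Aspn overlaps 1 exon of Cenpp while Omd, Ogn and Ecm2 lie within its introns. Whether intronic reads were counted is not given in the sources used here, so the erythroid values of Aspn, Omd and Ogn are uncertain, and the part of Cenpp transcription in these genes was not tested in any cell type. In mesenchymal cells Cenpp was 11.2 and 27.4 CPM in the Clec3b-led cluster and 59.3 and 74.2 in the Tnn-led cluster, below Aspn in both clusters but near or above Omd in the mutant (9.51 and 98.0 CPM). In the Adamts18/Kcnq5 group Cenpp was 96.0 and 109 CPM and Omd 226 and 65.9. The mesenchymal values of Omd are therefore uncertain in the same way. Between the libraries, the Cenpp intervals overlapped in the Tnn-led cluster and in the Adamts18/Kcnq5 group. In the Clec3b-led cluster they lay apart, with Cenpp higher in the mutant. The part of Cenpp in the Omd ratios was not tested. Dcn in WT erythroid cells was 96.8 CPM, of which 93.8% came from 1 cell.

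**Figure D5:**
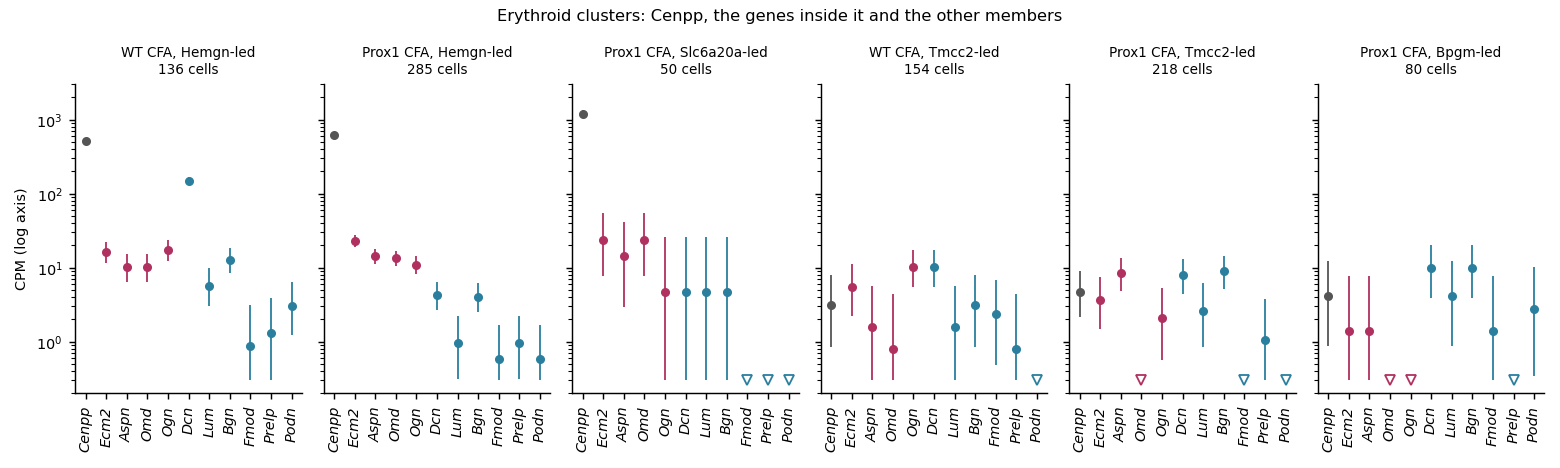
CPM of Cenpp, of the 4 genes inside it (Ecm2, Aspn, Omd and Ogn) and of the other 6 SLRPs in the erythroid clusters of the WT and the mutant library. In the Hemgn-led cluster Cenpp stands at 521 and 616 CPM with the genes inside it between 10.1 and 22.8, whereas in the Tmcc2-led cluster Cenpp stands at 3.16 and 4.73 and the genes inside it between 0 and 10.3. The values of the Tmcc2-led cluster rest on few UMIs and few cells.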

How the data were processed

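The data were the UMI counts per gene and barcode of both libraries. The authors made these counts with Cell Ranger 7.0.1 on GRCm38 (mm10) and deposited them as whole counts without normalization. The labels give the 10x 3' v2 kit with collagenase type I and Dispase II, and the study's methods give the v3.1 kit with another collagenase; whether introns were counted or doublets removed is not given in the sources used here.

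Groups followed the labels. The study's settings were used where stated: at least 500 genes and under 10% mitochondrial UMIs per cell, SCTransform, anchor integration (3000 features), 200 principal components and resolution 1.5, in Seurat 5.3.0 with sctransform 0.4.2 (R 4.3.3). The 9 SLRPs were taken out of the clustering genes and the markers. Markers counted as raised at a CPM (plus 5) at least 2 times that of other cells, with UMIs in at least 10% of the cells. Clusters were named for the type with most raised markers, 3 or more. Names were withheld where another type had more markers among the 10 leading genes, where no own marker led and most were not raised, and for shallow clusters without a leading marker. This rule was set after the clusters were seen. Mesenchymal cells were reclustered with 30 principal components at resolution 0.5.

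UMIs were summed per type and library and given as CPM with exact Poisson 95% intervals, shares with Clopper-Pearson intervals and ratios with exact conditional binomial intervals (Python 3.11.15, scipy 1.17.1, scanpy 1.11.5), all for counting error only. A gene at 0 UMIs was given a limit of 3 UMIs. Shares were also computed after randomly thinning cells to 2000 UMIs, and the median Dcn UMIs per cell came from another random draw. For the comparison with all genes and for the lists, ratios were read for genes reaching 200 UMIs in the mesenchymal cells of both libraries together. Ratios of the SLRPs in single cell types, clusters and groups were taken wherever neither library was at 0 UMIs. The counting and naming were tested on simulated data. Scrublet called 0 doublets automatically, so 239 and 462 barcodes with the highest scores were removed in an alternative. Total counts were 53517206 UMIs over 5709 WT barcodes and 62446987 over 7846 mutant barcodes, 10 of them shared.

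The genes named are the 9 SLRPs, genes of fixed lists and, for each SLRP, the 3 with the most similar profile over cell types; from the lists, those past 1.5-fold and a few familiar genes were printed. The members and lists were chosen with earlier results of these data known. Alternatives changed the cell filter, integration, normalization, principal components, resolution, doublets, clustering genes, the definition of mesenchymal cells, denominator, weight and depth of cells, free RNA, fold limit and minimums. Imaging and behaviour are not analysed here.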

Additional observations from a re-analysis of the deposited data

How the results depend on the processing

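The log2 ratio of the summed SLRPs in mesenchymal cells stayed below 0 in 15 of 15 alternatives. From -0.34 it moved to -0.40 with at least 200 genes, -0.39 with at least 1000 genes, -0.49 with merged libraries, -0.63 with log-normalization, -0.52 with 30 components, -0.49 at resolution 0.5, -0.42 without doublets, -0.45 with the SLRPs among the clustering genes, -0.43 with cells defined by collagen UMIs, -0.51 as the mean of single cells, -0.43 after thinning, and, in alternatives chosen after seeing the data, -0.43 in the Clec3b-led and -0.10 in the Tnn-led cluster. Dcn ranged from -0.85 to -0.51 and Prelp from 0.16 to 0.62 over the same 15.

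The count of SLRPs at least 1.5 times higher was 1 after thinning and 1 in the Tnn-led cluster, against 0. The count at least 1.5 times lower, 1 as reported, was 0 with 1000 genes, 3 with log-normalization, 4 with 30 components, 3 at resolution 0.5, 3 as the mean of single cells, and 2 with the SLRPs kept, with collagen UMIs, after thinning and in the Clec3b-led cluster. The sign changed for Omd with merged libraries (0.45) and log-normalization (0.40), for Fmod with log-normalization (0.0871), after thinning (0.0208) and in the Tnn-led cluster (0.0284), and in the Tnn-led cluster for Aspn (0.20) and Podn (0.86). Bgn, at 0.02, was above 0 in 8 and below 0 in 7 of the 15 (-0.17 to 0.08). In matched clusters of the 8 other clusterings, the Clec3b-led cells changed sign in 1 for Fmod (0.0055, log-normalization) and in 1 for Omd (0.55), and the Tnn-led cells in 2 for Fmod (-0.16 to 0.20 over the 8) and in 6 for Ogn (-0.08 to 0.40). In 7 of 8 other clusterings the matched Tnn-led cells were named chondrocyte or osteoblast instead of mesenchymal. The cause of these sign changes, and the part of the naming in them, was not tested.

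The mesenchymal share of SLRP UMIs, 84.7% in WT and 80.6% in the mutant, was 56.9% and 53.4% with 200 genes, 59.3% and 56.6% with 1000 genes, 58.3% and 59.0% with merged libraries, 59.4% and 62.7% with log-normalization, 49.1% and 48.9% with 30 components, 58.2% and 57.1% at resolution 0.5, 60.1% and 55.3% without doublets, 85.0% and 82.2% with the SLRPs kept, 44.1% and 43.3% with collagen UMIs, and 85.3% and 63.4% after thinning. The number of SLRPs highest in stromal and cartilage types stayed at 8 in WT and between 7 and 9 in the mutant over 13 alternatives. No paired analysis was possible because each genotype has 1 library. Depth limits values near 3 UMIs and cell types with few cells, and no alternative addresses variation between mice.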

Other observations

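Some unnamed clusters also carried SLRPs. A cluster led by Dok6, Plppr1 and Rspo4 (85 WT and 30 mutant cells) had Lum at 817 in WT and 697 in the mutant CPM and Fmod at 416 in WT and 238 in the mutant. Its Omd level was 82.8 in WT and 161 in the mutant and its Ogn level 101 in WT and 168 in the mutant, both higher in the mutant, with log2 ratios of 0.96 (0.50 to 1.41) and 0.74 (0.30 to 1.16), whereas Dcn was 372 in WT and 307 in the mutant. In the Tnn-led cluster, in chondrocytes and in osteoblasts and osteocytes Omd was lower in the mutant.

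A shallow cluster led by Igha, Hba-a2 and Pi16, with 242 mutant cells of 1942.5 UMIs at the median and no WT cell, had Dcn at 1472 CPM. Its best match was mesenchymal, with 6 of 9 markers raised. The name was withheld because its leading genes held more erythroid markers. These cells are therefore left out of the mesenchymal counts, shares and ratios given above. With all cells of this cluster in 1 library, cell type and library cannot be told apart in it.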
